A study of Mus musculus with 8 samples.

Results

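The 9 genes described here mark type 2 conventional dendritic cells (cDC2) of the mouse spleen. Esam, Clec4a4, Sirpa, Cd209a, Clec10a and Cd300a encode cell surface proteins found on cDC2, whereas Itgax, Zbtb46 and Flt3 are shared by conventional dendritic cells (cDCs) as a whole. They were taken by symbol from the 51826 genes of the count table. All 9 of 9 were present, and all 9 were among the 16484 genes that had enough counts to be tested.

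Gene expression was measured by RNA sequencing of total splenocytes from 8 female Balb/c mice, whose spleens were taken at an age of 3 months. Of these, 4 had received all-trans retinoic acid (tRA) by mouth every day since weaning, and 4 had received the vehicle, canola oil (control). Neither group was given pristane. The sample labels list tRA at 1 mg/kg for all 8 mice, while the sample titles and the description of the study separate control from tRA mice, and the groups follow the titles. The libraries held between 30919272 and 37539631 counts in the control mice and between 31810417 and 35165876 in the tRA mice.

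Conventional dendritic cells take up antigen and present it to T cells, and in the spleen the cDC2 subset primes mainly CD4 T cells. A splenic cDC2 population with high ESAM depends on Notch2 signaling and on the lymphotoxin beta receptor, and vitamin A deprivation is known to reduce it. Retinoic acid acts through the nuclear receptors RAR and RXR, which bind DNA as pairs at repeated short motifs.

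Of the 9 cDC2 genes, 0 were called at an FDR under 0.1 by the quasi-likelihood test of edgeR, with p-values adjusted by Benjamini and Hochberg over all genes tested, and the share of all genes tested that were called was 0%. At an unadjusted p under 0.05 there was 1 of the 9, Cd209a, where 6.49% of all genes tested had such a p. Among the 9 genes, 0 had groups that did not overlap, against 3.54% of all genes tested. The log2 fold change (tRA over control) was positive for 6 of the 9 and negative for 3, with a median of 0.05, beside 0.0014 over all genes tested. This median was -0.037 without control mouse 1, and also below 0 without control mouse 3, tRA mouse 3 or tRA mouse 4. DESeq2 and limma-voom also called 0 of the 9. Whether the 9 genes depend on retinoid was not tested, since tRA was given here and retinoid was not withheld. They are therefore described as splenic cDC2 genes. In total splenocyte RNA, a change in the number of cDC2 and a change in RNA per cell cannot be told apart.

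Esam encodes an adhesion molecule of the immunoglobulin family, found on endothelium as well as on the Notch2-dependent cDC2. It lies on chr9:37528078-37538319 of GRCm38. Its level in CPM, a count relative to the normalized size of its library, was 1.33, 1.93, 2.48 and 1.55 in control mice 1 to 4, and 2.29, 1.64, 2.36 and 1.47 in tRA mice 1 to 4. Control mouse 3 was the highest and control mouse 1 the lowest of the 8 mice, and all 4 tRA mice lay between them. The means were 1.82 ± 0.507 CPM in the control mice and 1.94 ± 0.452 CPM in the tRA mice (SD, n = 4 each). The log2 fold change was 0.09 ± 0.25 (SE), with a 95% interval from -0.46 to 0.64 and an FDR of 0.957 by edgeR. These values rest on 48 to 87 counts per mouse.

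Clec4a4, also known as DCIR2, encodes a C-type lectin receptor of splenic cDC2 (chr6:122990367-123024105). It was the least counted of the 9 genes, with 34 to 56 counts per mouse. Its level was 1.14, 1.06, 1.62 and 1.39 CPM in control mice 1 to 4, and 1.25, 1.57, 1.49 and 1.07 CPM in tRA mice 1 to 4. The highest mouse was a control and so was the lowest, and all 4 tRA values fell between them. The log2 fold change was 0.05 ± 0.23 (SE), with a 95% interval from -0.45 to 0.55. Of the 50-base words in its transcripts, 15.7% also occur in another gene, all of them in Clec4a2. How reads from these words were assigned was not tested. Clec4a2 itself had a log2 fold change of 0.05 ± 0.12 (SE).

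Sirpa encodes the receptor for CD47, an inhibitory receptor that separates cDC2 from cDC1 and is also carried by macrophages and granulocytes (chr2:129592835-129632228). Control mice 1 to 4 had 121, 182, 150 and 147 CPM, and tRA mice 1 to 4 had 132, 147, 164 and 159 CPM. The control mice held both the lowest and the highest value, and the tRA mice lay between them. The log2 fold change was 0.0031 ± 0.12 (SE), with a 95% interval from -0.25 to 0.26 and an FDR of 0.997 by edgeR. This interval was the narrowest of the 9 genes.

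Cd209a encodes a C-type lectin related to human DC-SIGN and is expressed by cDC2 and monocyte-derived cells (chr8:3743397-3748984). Its level was 8.90, 12.3, 10.9 and 12.0 CPM in control mice 1 to 4, and 11.5, 13.9, 14.0 and 13.8 CPM in tRA mice 1 to 4. The 3 highest tRA mice lay close together and above all control mice, while tRA mouse 1 fell within the control range, so the groups overlapped. The means were 11.0 ± 1.54 CPM in the control mice and 13.3 ± 1.21 CPM in the tRA mice (SD, n = 4 each). With tRA over control, its log2 fold change was 0.27 ± 0.12 (SE), with a 95% interval from 0.0020 to 0.55. The unadjusted p was 0.0486 and the FDR 0.757 by edgeR, so the difference did not pass the threshold over all genes. It kept its sign in each of the 15 alternatives run, from 0.18 without control mouse 1 to 0.34 without tRA mouse 1, with an FDR between 0.315 and 0.999. Its unadjusted p no longer lay under 0.05 without control mouse 1, control mouse 3, tRA mouse 2, tRA mouse 3 or tRA mouse 4, or with at least 10 counts required in every sample.

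Among the other CD209 genes, which lie in the same family cluster, Cd209b, Cd209c and Cd209d were tested. Their log2 fold changes were 0.27 ± 0.31, 0.38 ± 0.30 and -0.10 ± 0.27 (SE), each at under 3 CPM. Cd209e had too few counts to be tested, and Cd209f and Cd209g had 0 counts in all 8 mice. None of the 50-base words of Cd209a occurs in another gene.

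Clec10a encodes a galactose-binding C-type lectin, MGL1, of cDC2 and macrophages (chr11:70156197-70170834). Its level was 3.38, 3.73, 4.85 and 5.17 CPM in control mice 1 to 4, and 2.81, 3.72, 4.47 and 3.57 CPM in tRA mice 1 to 4. The lowest mouse was tRA mouse 1 and the highest were control mice 3 and 4, with the other values mixed. On the log2 scale, the fold change was -0.23 ± 0.19 (SE), with a 95% interval from -0.66 to 0.19 and an FDR of 0.833 by edgeR. Of its 50-base words, 9.02% also occur in other genes, most of them in Mgl2, its close relative, which had a log2 fold change of -0.27 ± 0.34 (SE).

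Cd300a encodes an inhibitory receptor for phospholipids exposed on dying cells, carried by dendritic cells and many other leukocytes (chr11:114890041-114904654). Control mice 1 to 4 had 28.3, 43.6, 40.4 and 34.9 CPM, and tRA mice 1 to 4 had 35.6, 37.9, 41.4 and 45.4 CPM. Control mouse 1 was below the others, and the remaining 7 mice were mixed. Its log2 fold change was 0.12 ± 0.13 (SE), with a 95% interval from -0.16 to 0.41 and an FDR of 0.864 by edgeR.

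Of the genes shared by cDCs, Itgax encodes the integrin chain CD11c, by which dendritic cells are commonly identified (chr7:128129547-128150657). Its level was 70.4, 88.5, 80.0 and 112 CPM in control mice 1 to 4, and 69.7, 80.0, 91.6 and 92.5 CPM in tRA mice 1 to 4. The lowest values came from mouse 1 of each group and the highest from control mouse 4. The fold change on the log2 scale was -0.07 ± 0.14 (SE), with a 95% interval from -0.38 to 0.23. Of its 50-base words, 8.02% also occur in Itgad, an integrin chain of splenic macrophages.

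Zbtb46 encodes a transcription factor of committed cDC precursors and cDCs (chr2:181387762-181459426). Control mice 1 to 4 had 9.39, 8.90, 7.34 and 12.6 CPM, and tRA mice 1 to 4 had 7.67, 10.3, 10.7 and 11.3 CPM. The control mice again held the lowest and the highest value. By edgeR, the log2 fold change was 0.06 ± 0.18 (SE), with a 95% interval from -0.33 to 0.45. A small nuclear RNA gene, Gm22708, lies within Zbtb46 and shares no exon bases with it.

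Flt3 encodes the receptor tyrosine kinase through which its ligand sustains dendritic cell development (chr5:147330741-147400489). Its level was 22.0, 24.9, 20.9 and 28.5 CPM in control mice 1 to 4, and 17.2, 22.5, 22.7 and 19.8 CPM in tRA mice 1 to 4. The lowest mice, tRA mouse 1 and tRA mouse 4, lay below all controls, and tRA mice 2 and 3 lay among them. The means were 24.1 ± 3.41 CPM in the control mice and 20.6 ± 2.63 CPM in the tRA mice (SD, n = 4 each). The fitted log2 fold change was -0.23 ± 0.12 (SE), with a 95% interval from -0.50 to 0.04 and an FDR of 0.780 by edgeR. Without control mouse 3, its unadjusted p was under 0.05, with a log2 fold change of -0.30, and the value was -0.14 without control mouse 4 and -0.15 without tRA mouse 1, both with an unadjusted p above 0.05. An antisense gene, Gm26597, overlaps Flt3 without sharing exon bases, and the TruSeq v2 kit named for the libraries does not mark the strand.

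**Figure D1:**
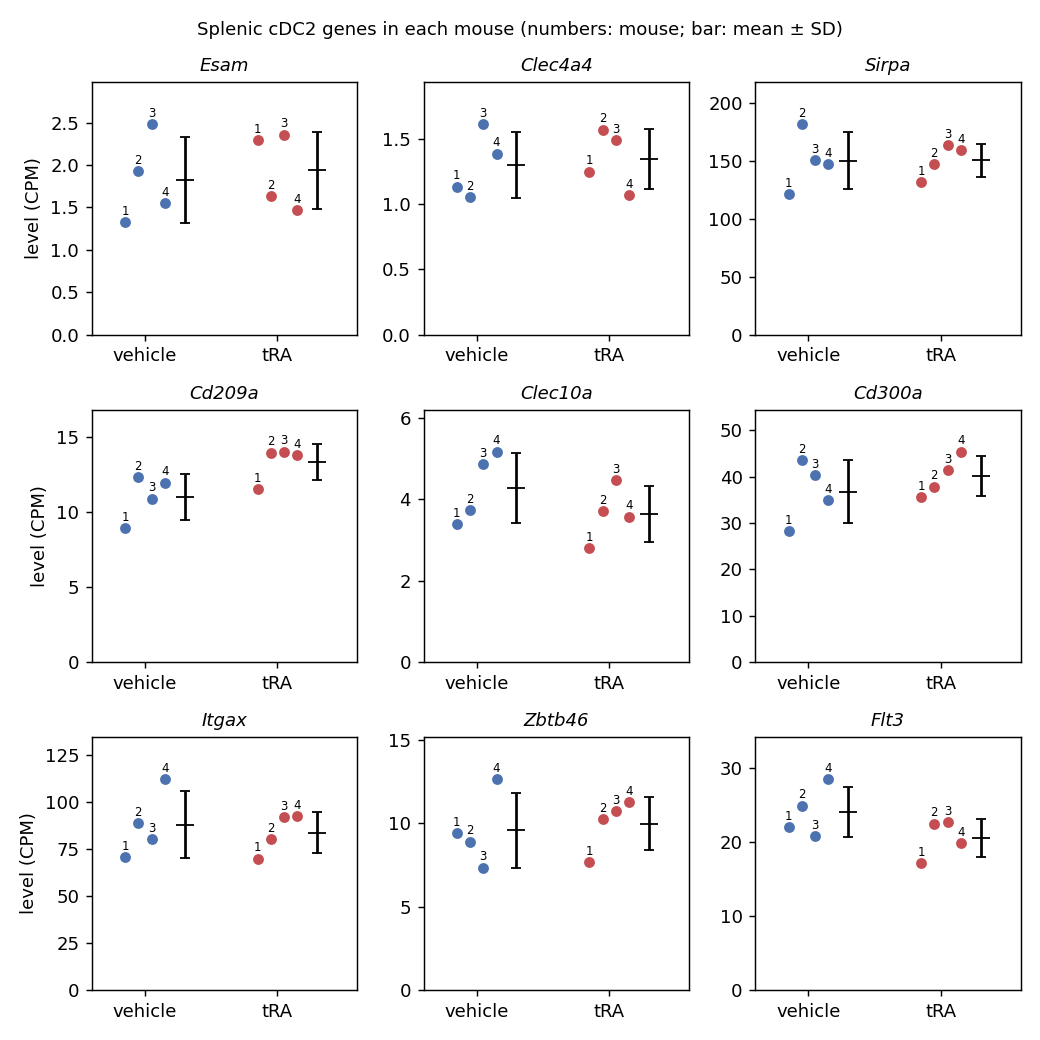
Level of each of the 9 splenic cDC2 genes in CPM (vertical axes starting at 0) in 4 vehicle (control) and 4 tRA mice. Each point is a mouse with its number, and the bar beside each group is the mean ± SD. The groups overlap in all 9 panels, and mouse 1 is the lowest of its group in most of them.

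**Figure D2:**
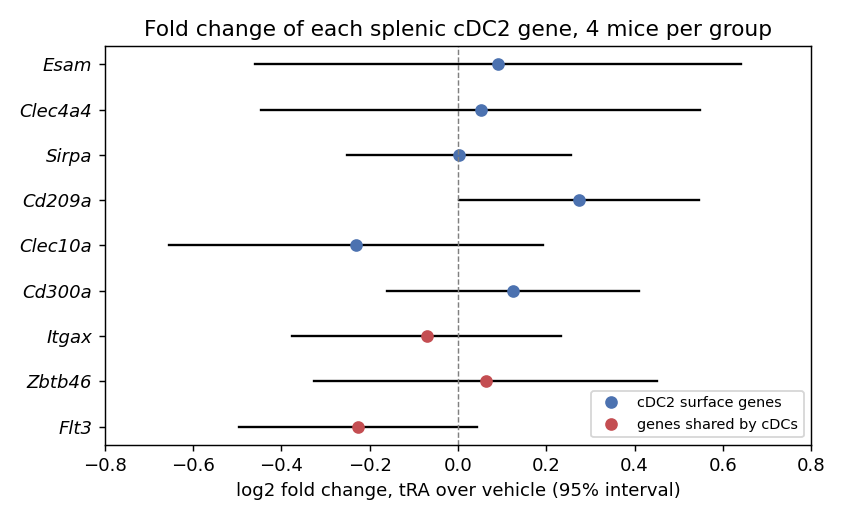
Log2 fold change (tRA over control) of each of the 9 genes with its 95% interval from edgeR, for 4 mice per group. The intervals of 8 genes span 0, and that of Cd209a runs from 0.0020 to 0.55.

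Per length of exon, the 9 genes covered a wide range of levels. Over the 8 mice, Sirpa was highest at 30.6 ± 3.81 CPM per kb (SD), followed by Itgax at 17.8 ± 2.87, Cd300a at 8.11 ± 1.16 and Cd209a at 7.69 ± 1.12. Flt3 stood at 3.61 ± 0.548, Clec4a4 at 1.71 ± 0.291, Clec10a at 1.37 ± 0.275, Zbtb46 at 1.15 ± 0.212 and Esam at 0.656 ± 0.157 CPM per kb. Sirpa was at percentile 89.9 of all genes tested, and Esam at percentile 20.6. Cd300a exceeded Cd209a in 5 of the 8 mice, and their ranges overlapped. Clec4a4 exceeded Clec10a in 8 of 8 mice, yet their ranges overlapped, as did those of Clec10a and Zbtb46 and of Zbtb46 and Esam. The other neighbors in this order kept their place in 8 of 8 mice, with ranges apart.

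The 9 genes also differed between the mice of a group. Control mouse 1 was below the median of the 8 mice for 9 of the 9 genes and was the lowest mouse for 4 of them, and tRA mouse 1 was below the median for 8 and the lowest for 3. At the other end, tRA mouse 3 was below the median for 0 of the 9, and control mouse 4 was the highest mouse for 4 of them. On a scale of SDs, the mean profile of the 9 genes was lowest in control mouse 1 at -1.77 and in tRA mouse 1 at -1.23, and highest in tRA mouse 3 at 1.10. Itgax and Sirpa followed this profile most closely, with mean absolute differences of 0.464 and 0.489 SD over the 8 mice, and Clec4a4 least, with 0.953 SD. The ratio of the highest mouse to the lowest was at most 1.87, for Esam, and lowest for Sirpa.

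The spread between mice was larger in the control group for 9 of the 9 genes, whereas it was larger in the control group for 53.3% of all genes tested. On the log2 scale, the median SD of the 9 genes was 0.263 in the control mice and 0.186 in the tRA mice, beside 0.167 and 0.157 over all genes tested. The count of 9 fell to 5 without control mouse 4, to 6 without control mouse 1 or control mouse 3, and to 7 or 8 without any 1 of the tRA mice, and stayed at 9 without control mouse 2. The share of all genes tested was 51% without control mouse 4, 52.2% without control mouse 1, 41.2% without control mouse 3 and 52.5% without control mouse 2. It ran from 49.5% without tRA mouse 2 to 64.4% without tRA mouse 1. This comparison, and its repeats with a mouse left out, was made after the values were seen, and since the 9 genes come from the same 4 mice per group, they are not independent measurements of it.

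The 5 genes whose profile over the 8 mice was most like the mean of the 9 were Dclre1a, Rps6ka1, Aars2, Rrbp1 and Slc25a45, with mean absolute differences of 0.196 to 0.261 SD. Esam on its own was most like Pik3cd, Slc44a2, Vars2, Plvap and Tstd3, with differences of 0.280 to 0.302 SD. Among these, Plvap is a gene of fenestrated endothelium, and its level was 5.55 CPM in the control and 5.74 CPM in the tRA mice.

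Since Esam is also a gene of endothelium and its level was low, the endothelial markers are given beside it. Of 10 markers 9 were tested, 6 had a positive and 3 a negative log2 fold change, the median was 0.07, and 0 had an unadjusted p under 0.05. Without control mouse 3 the median was 0.34 and 1 marker was higher at such a p, and without control mouse 1 the median was -0.09. Their summed level was 261, 282, 284 and 257 CPM in control mice 1 to 4 and 263, 268, 294 and 271 CPM in tRA mice 1 to 4. Most of it was Pecam1, which leukocytes also express, at 240 CPM in both groups. Without Pecam1, the sum was 19.8, 37.7, 42.9 and 24.5 CPM in the control mice and 26.0, 27.2, 50.4 and 32.6 CPM in the tRA mice. Mouse 3 of each group was highest in this sum, as it was in Esam. The endothelial genes Cdh5 and Kdr stood at 3.84 and 3.10 CPM in the control mice, and Emcn had too few counts to be tested. The part of endothelial RNA in the level of Esam was not tested.

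Proteins that act together with those of the 9 genes were encoded by 5 genes, and all 5 had a positive log2 fold change with a median of 0.06. By edgeR, 0 of the 5 had an unadjusted p under 0.05, and 1 did without control mouse 2, without tRA mouse 2, without the filter on low counts, and when scaled by RLE or by library size alone. Flt3l, the ligand of Flt3, had 84.1 ± 5.29 CPM in the control mice and 95.4 ± 9.59 CPM in the tRA mice (SD, n = 4 each), with a log2 fold change of 0.18 ± 0.08 (SE). The log2 fold change of Cd47, the ligand of Sirpa, was 0.02 ± 0.10 (SE). Itgb2, the partner chain of Itgax, stood at 0.10 ± 0.08, and the phosphatases Ptpn6 and Ptpn11, which bind Sirpa and Cd300a, at 0.02 ± 0.07 and 0.06 ± 0.07 on the same scale.

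The Notch and lymphotoxin pathway on which ESAM-high cDC2 depend was followed in a list of 18 genes, all tested. Besides genes of that pathway, this list holds the transcription factor genes Irf2, Irf4, Klf4 and Zeb2. Of the 18, 8 had a positive and 10 a negative log2 fold change, with a median of -0.05, and 0 were called at an FDR under 0.1. These values include the transcription factor genes, with log2 fold changes of 0.01 for Irf4, -0.04 for Irf2, -0.08 for Zeb2 and -0.60 for Klf4. The pathway genes were not tallied without them. The receptor gene Notch2 had a log2 fold change of 0.09 ± 0.11 (SE), its ligand gene Dll1 -0.25 ± 0.14, and Rbpj, which encodes the transcription factor at the end of the pathway, 0.07 ± 0.09. An unadjusted p under 0.05 was found for 2 of the 18, Hes1 and Lta, both lower in the tRA mice, while 3.55% of all genes tested were lower and 2.94% higher at such a p. At such a p, 4 were lower and 1 higher without tRA mouse 1, 3 lower and 1 higher without control mouse 2, and 1 lower without control mouse 3. Without control mouse 1, 1 gene was higher. The median was -0.0071 without control mouse 2 and -0.09 without control mouse 3.

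Lta encodes lymphotoxin alpha, and its level was 31.8, 37.0, 34.0 and 36.5 CPM in control mice 1 to 4 and 24.6, 30.2, 29.0 and 30.6 CPM in tRA mice 1 to 4. All tRA mice lay below all control mice, which held for 1.63% of all genes tested. With tRA over control, its log2 fold change was -0.28 ± 0.09 (SE), with an FDR of 0.757 by edgeR. Its partner chain Ltb had a log2 fold change of -0.15 ± 0.11 (SE) and overlapping groups, and the receptor Ltbr 0.01 ± 0.15.

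Hes1, a target gene of Notch signaling, was at 26.5, 28.7, 40.0 and 28.6 CPM in control mice 1 to 4 and at 28.2, 23.4, 14.9 and 14.8 CPM in tRA mice 1 to 4. The lowest values came from tRA mice 3 and 4, tRA mouse 2 was also below the controls, and tRA mouse 1 lay within their range. On the log2 scale, the fold change was -0.61 ± 0.21 (SE), with an FDR of 0.757 by edgeR.

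The same pair of tRA mice was low for Klf4, which encodes a transcription factor needed by a part of the cDC2. Its level was 367, 402, 447 and 351 CPM in control mice 1 to 4 and 432, 362, 106 and 135 CPM in tRA mice 1 to 4, and the log2 fold change was -0.60 ± 0.38 (SE). Irf4, another transcription factor of cDC2 that lymphocytes also express, had 367 and 302 CPM in tRA mice 1 and 2 and 159 and 178 CPM in tRA mice 3 and 4, with 193 to 276 CPM in the control mice. For the 9 cDC2 genes, tRA mouse 3 was below the median of the 8 mice for 0 and tRA mouse 4 for 4 of them.

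Genes of retinoid signaling and metabolism, 20 in all, included 13 that were tested. Of these, 7 had a positive and 6 a negative log2 fold change, with a median of 0.01, and 0 had an unadjusted p under 0.05. Without tRA mouse 1, 1 was higher and 2 were lower at such a p, and without control mouse 2, 1 was higher. Rarb, a gene that RAR itself induces in many tissues, was at 1.38, 1.71, 1.07 and 1.49 CPM in control mice 1 to 4 and at 1.62, 2.11, 1.74 and 2.14 CPM in tRA mice 1 to 4. The groups overlapped, as control mouse 2 lay above tRA mouse 1, and these values rest on 37 to 70 counts per mouse. The log2 fold change of Rarb was 0.43 ± 0.21 (SE), with an FDR of 0.776 by edgeR. Other genes of this list were lower, with log2 fold changes of -0.52 ± 0.41 for Stra6 and -0.36 ± 0.39 for Crabp2 (SE). Hic1 stood at -0.19 ± 0.22, Tgm2 at -0.16 ± 0.15 and Dhrs3 at 0.07 ± 0.15 on the same scale. The receptor gene Rara had 129 CPM in the control and 136 CPM in the tRA mice, with a log2 fold change of 0.08 ± 0.08 (SE). Cyp26a1 and Cyp26b1, which encode enzymes that break down retinoic acid, had too few counts to be tested, at 0.177 and 0.132 CPM in the control mice and 0.159 and 0.160 CPM in the tRA mice.

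For 5 of the 9 genes, Cd209a, Cd300a, Flt3, Itgax and Zbtb46, RefSeq promoters of GRCm38.p6 were at hand, each of 300 bases around a start. The window of Zbtb46 lies around an internal start of the gene. These were searched on both strands for the retinoid receptor core motif AGGTCA, its variant AGTTCA, and the forms GGGTCA or else GGTTCA, and for direct repeats of any 2 of them spaced by 1, 2 or 5 bases. A single core motif was in 4 of the 5, and in 43.7% of all 32851 promoters of the same length. Direct repeats were in 0 of the 5 at any of the 3 spacings, while 0.222%, 0.268% and 0.0974% of all promoters held them at a spacing of 1, 2 and 5. Among 29 promoters of 15 genes of the retinoid list, 2 held a repeat spaced by 5, those of Rarb and Cyp26a1. Zbtb46 holds 3 core motifs, and the stretch printed holds 2 of them, the other being GGGTCA on the minus strand, in lower case. The matches in cDC2 genes are printed beside these repeats for comparison, 5′ to 3′ on the strand of the match, with the matched motif in capitals.
Rarb, minus strand, chr14:16575507-16575535: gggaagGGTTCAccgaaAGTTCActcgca
Cyp26a1, minus strand, chr19:37697770-37697798: caaattAGTTCAcccaaAGTTCAtcttta
Cd209a, plus strand, chr8:3749120-3749137: atagatGGTTCActtcca
Cd300a, plus strand, chr11:114889828-114889845: tgctcaAGTTCAatgggg
Flt3, minus strand, chr5:147400447-147400464: tgcgccAGTTCAgcccgc
Zbtb46, plus strand, chr2:181424586-181424603: ggtatgAGGTCAtgaccc
The Rarb repeat lies 37 to 53 bases and the Cyp26a1 repeat 16 to 32 bases before the start, whereas the single motif of Flt3 lies after it. A match is a description of letters in this window and says nothing of binding.

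Of 11 other cDC2 markers, all tested, 5 had a positive and 6 a negative log2 fold change, with a median of -0.07, and 0 had an unadjusted p under 0.05 by edgeR. At such a p, 1 was higher with DESeq2, with limma-voom, when scaled by library size alone, without the filter on low counts, and without control mouse 2, control mouse 4, tRA mouse 1 or tRA mouse 2, and 1 was lower without control mouse 1. The median was -0.15 without control mouse 1 and 0.07 without control mouse 2. S100a4 had the lowest log2 fold change of the 11, at -0.30 ± 0.20 (SE), and the chemokine receptor genes Ccr2 and Ccr6 were at 0.27 ± 0.21 and 0.25 ± 0.18. Cd4, carried by T cells and by splenic cDC2, was at 0.18 ± 0.08 on the same scale.

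Among 16 other genes shared by cDCs, 8 had a positive and 8 a negative log2 fold change, with a median of -0.0034. Here 2 were higher at an unadjusted p under 0.05, Btla and Fgl2, against 2.94% of all genes tested, and 1 was lower, Spint2, against 3.55%. None was lower at such a p without control mouse 1, control mouse 3, tRA mouse 2, tRA mouse 3 or tRA mouse 4, and 2 were without tRA mouse 1. Ciita, the most abundant of the 16, had a log2 fold change of 0.09 ± 0.14 (SE), and the part of other spleen cells in its level was not tested. Btla, an inhibitory receptor gene of lymphocytes and dendritic cells, was at 241, 267, 179 and 186 CPM in control mice 1 to 4 and at 272, 305, 289 and 287 CPM in tRA mice 1 to 4. All tRA mice lay above all control mice, as for 1.91% of all genes tested. Its log2 fold change was 0.40 ± 0.12 (SE), with an FDR of 0.757 by edgeR.

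Markers of cDC1, the other conventional subset, had a positive log2 fold change for 2 and a negative one for 10 of 12 genes, with a median of -0.12, which was -0.20 without tRA mouse 3 and -0.07 without tRA mouse 1. Naaa was the 1 gene among them with an unadjusted p under 0.05, lower like 3.55% of all genes tested, at 56.5 ± 5.21 CPM in the control and 46.0 ± 4.36 CPM in the tRA mice (SD, n = 4 each) and a log2 fold change of -0.29 ± 0.09 (SE). Without control mouse 3 or tRA mouse 3, 2 cDC1 markers were lower at such a p. Xcr1 and Clec9a, which define cDC1, stood at -0.15 ± 0.17 and -0.23 ± 0.18, and Wdfy4, the most abundant, at -0.15 ± 0.09. In the control mice Wdfy4 had a mean of 475 CPM, against 6.01 CPM for Xcr1 and 12.3 CPM for Clec9a. The part of other spleen cells in the level of Wdfy4 was not tested. Markers of plasmacytoid dendritic cells were negative for 7 of 8, with a median of -0.10. At an unadjusted p under 0.05, Ccr9 was higher and Bst2 and Ly6d were lower among these 8, where 2.94% of all genes tested were higher and 3.55% lower. Tcf4, the most abundant, had a log2 fold change of -0.12 ± 0.09 (SE), and the part of other spleen cells in its level was not tested. The median of these markers was 0.07 without tRA mouse 1 and -0.20 without tRA mouse 2, and none of them was higher at such a p without control mouse 1 or tRA mouse 4. Whether cDC1 and cDC2 genes differed in their response was not tested.

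Several of the 9 genes are also expressed by other myeloid cells, whose markers are therefore given. Monocyte markers had a median log2 fold change of -0.23 over 9 genes, 3 of them positive, with Ms4a6c higher at an unadjusted p under 0.05, as were 2.94% of all genes tested. Over the alternatives, 0 to 1 monocyte markers were higher and 0 to 2 lower at such a p. Without control mouse 2, this median was -0.05. Nr4a1, the most abundant of the monocyte markers, was at 1680, 946, 159 and 233 CPM in tRA mice 1 to 4 and at 952 to 1150 CPM in the control mice. Without Nr4a1, the monocyte markers summed to 546, 996, 990 and 767 CPM in control mice 1 to 4. In tRA mice 1 to 4 this sum was 765, 828, 859 and 976 CPM, a pattern unlike that of Nr4a1. Klf4, Irf4 and Hes1 were, like Nr4a1, lower in tRA mice 3 and 4 than in tRA mice 1 and 2. Which cells the Nr4a1 RNA came from was not tested. Splenic macrophage markers had a median of -0.11 over 12 genes, 3 of them positive, which was -0.25 without tRA mouse 3 and -0.0063 without control mouse 2. Hmox1, the most abundant of them, had a log2 fold change of -0.18 ± 0.16 (SE). Neutrophil markers had a median of -0.70 over 12 genes, 10 of them negative. At an unadjusted p under 0.05, 8 of the 12 were lower, against 3.55% of all genes tested, namely Camp, Ngp, Ltf, Ly6g, S100a8, S100a9, Mpo and Elane, with log2 fold changes from -1.23 for Camp to -0.58 for S100a9. Over the alternatives, 8 neutrophil markers were lower and 0 to 2 higher at such a p. At an FDR under 0.1, edgeR called 0 of the 12, and 3 without a filter on low counts or without tRA mouse 4, while DESeq2 called 3 and limma-voom 1. The summed neutrophil markers were at 1036, 1520, 1365 and 1249 CPM in control mice 1 to 4 and at 860, 853, 759 and 1252 CPM in tRA mice 1 to 4, with Csf3r the most abundant. Csf3r and Cxcr2 were the 2 markers with a positive log2 fold change, at 0.25 ± 0.23 and 0.39 ± 0.19 (SE). Without Csf3r, the sum was 886, 1172, 1158 and 1006 CPM in the control mice and 556, 589, 549 and 900 CPM in the tRA mice. Sirpa, which granulocytes carry as well, had a mean of 150 CPM in both groups beside this, and the part of neutrophil RNA in its level was not tested.

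Markers of lymphocytes, the main cells of the spleen, were also summed. The B cell markers summed to 6212 ± 477 CPM in the control mice and 6212 ± 94.1 CPM in the tRA mice (SD, n = 4 each), and their median log2 fold change over 7 genes was 0.0045. The T cell markers had a median of 0.10 over 7 genes, with Cd28 among the 2.94% of all genes tested that were higher at an unadjusted p under 0.05. Without control mouse 2, this median was 0.04, and the number of T cell markers higher at such a p ran from 0 to 3 over the alternatives. The NK cell markers had a median of -0.04 over 6 genes. The most abundant of these were Cd79a, Lck and Nkg7, with log2 fold changes of -0.13 ± 0.09, -0.07 ± 0.10 and -0.05 ± 0.11 (SE). The 9 cDC2 genes together summed to 266, 367, 319 and 355 CPM in control mice 1 to 4 and to 280, 318, 352 and 348 CPM in tRA mice 1 to 4, with Sirpa the most abundant. The platelet markers had a median of -0.23 over 6 tested of 9, which was -0.61 without control mouse 4 and 0.03 with at least 10 counts required in every sample. Itga2b, the most abundant of them, had a log2 fold change of -0.10 ± 0.12 (SE).

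Relatives of the 9 genes in sequence, 22 in all, had 19 tested, of which 11 were positive and 8 negative, with a median of 0.03. This median was -0.08 without control mouse 1 and 0.10 without control mouse 2. Itgal, the most abundant of them, had a log2 fold change of 0.06 ± 0.12 (SE). Of these, 2 had an unadjusted p under 0.05, Clec4b2 and Cd300e, both with all tRA mice below all control mice, as for 1.63% of all genes tested. Cd300e, a relative of Cd300a, was at 9.58, 10.9, 9.88 and 9.99 CPM in control mice 1 to 4 and at 5.47, 6.14, 7.70 and 8.71 CPM in tRA mice 1 to 4, with a log2 fold change of -0.52 ± 0.15 (SE). Clec4b2 had few counts, 0.520 CPM in the control and 0.157 CPM in the tRA mice, and a log2 fold change of -1.71 ± 0.35 (SE). Both had an FDR of 0.757 by edgeR. Between Cd300a and its relatives, Cd300c2 shared the most 50-base words with it and had a log2 fold change of 0.00041 ± 0.12 (SE).

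Across all genes tested, edgeR called 0 at an FDR under 0.1, with 1070 at an unadjusted p under 0.05. DESeq2 called 44 and limma-voom 1, and none of these was among the 9 cDC2 genes. Between mice, the biological coefficient of variation was estimated at 0.152. The p-values measure only the spread between these samples.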

How the data were processed

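RNA of total splenocytes from 8 mice was sequenced. The authors deposited raw counts per Ensembl gene. The published methods name Bowtie2 and Tophat2 for alignment and HTSeq for counting, whereas the submitters' processing notes list STAR 2.5.2b, featureCounts 1.5.1 and DESeq2 1.26.0 with GRCm38, and this conflict could not be settled. A deposited comparison table (mean, log2 fold change, SE, statistic and p-values) was not used. Symbols, positions and exon lengths came from GENCODE M21, which holds 51633 of the 51826 identifiers. In R 4.3.3, counts were filtered by filterByExpr (minimum 10), normalized by TMM and tested by edgeR 4.0.16 with a quasi-likelihood fit and Benjamini-Hochberg adjustment, DESeq2 1.42.0 and limma 3.58.1 (voom) being alternatives. The scripts were tested on simulated data. Likeness of profiles was the mean absolute difference of standardized log2(CPM + 0.5), over genes of at least 5 CPM. The SE given for edgeR was derived as the absolute log2 fold change divided by the square root of the F statistic of the quasi-likelihood test. Intervals are 95% from this SE and the t distribution. The 9 genes and the 18 lists were chosen with earlier results of these data known. Named genes were all 9, genes of each list by role, among them those at an unadjusted p under 0.05 and the most abundant, and the 5 most alike in profile to the mean and to Esam. The search of promoters and the sums without the most abundant gene were added after the data were seen.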

Additional observations from a re-analysis of the deposited data

Results flagged for a closer look

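For each of the 9 cDC2 genes in each group, 18 groups of 4 mice in all, the distance of the most extreme mouse to its nearest neighbor was divided by the range of the group. In 1 of the 18 this ratio was above the 95% critical value of Dixon for 4 samples. For Cd209a in the tRA mice it was 0.905, as tRA mouse 1 had 11.5 CPM and the other tRA mice had 13.8 to 14.0 CPM. Chance flags about 1 in 20 groups. Without tRA mouse 1, the log2 fold change of Cd209a was 0.34, against 0.27 with it.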

How the results depend on the processing

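The 9 genes gave 0 calls at an FDR under 0.1 in each of the 15 alternatives run, 8 of which left out a mouse, and DESeq2 gave no adjusted p for Clec4a4. Genes called among all tested were 0 with TMM, RLE or library size alone and with at least 10 counts in every sample, 6 without a filter on low counts, 44 with DESeq2 and 1 with limma-voom. Leaving out a mouse gave 0 to 3, the latter without tRA mouse 4. Genes with an unadjusted p under 0.05 among all tested numbered 1070. With a mouse left out, this number ran from 657 without tRA mouse 4 to 2105 without tRA mouse 1. The cDC2 genes with an unadjusted p under 0.05 numbered 1, and 0 with at least 10 counts in every sample. Leaving out a mouse gave 0 to 1, and 0 without control mouse 1, tRA mouse 2, tRA mouse 3 or tRA mouse 4. Where it was 1, the gene was Cd209a, except without control mouse 3, where it was Flt3. Their median log2 fold change of 0.05 moved between -0.037 (without control mouse 1) and 0.068 (without control mouse 4) when a mouse was left out.

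Cd209a, Clec10a, Cd300a and Flt3 kept their sign in all 15 alternatives, though not their size. With a mouse left out, Cd300a ranged from 0.017 (without control mouse 1) to 0.22 (without control mouse 2), Clec10a from -0.35 (without tRA mouse 3) to -0.12 (without tRA mouse 1), Flt3 from -0.30 (without control mouse 3) to -0.14 (without control mouse 4) and Cd209a from 0.18 (without control mouse 1) to 0.34 (without tRA mouse 1). The sign of the other 5 genes, none of which was called, changed in 15 of their 40 values with a mouse left out. Esam then ranged from -0.037 (without control mouse 1) to 0.27 (without control mouse 3), Clec4a4 from -0.035 (without control mouse 2) to 0.17 (without control mouse 3) and Sirpa from -0.086 (without control mouse 1) to 0.11 (without control mouse 2). Zbtb46 ranged from -0.053 (without control mouse 3) to 0.22 (without control mouse 4), and Itgax from -0.16 (without control mouse 1) to 0.068 (without control mouse 4).

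With the replicate number as a block, 0 genes were called, 0 of them cDC2 genes. Correlations of same-numbered mice were 0.21, -0.0236, -0.0219 and 0.308, and the sample labels tie these mice by their number alone. Under the block, 4 genes of the Notch and lymphotoxin list were lower and 1 other cDC2 marker was higher at an unadjusted p under 0.05.

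The same alternatives, chosen for the lists after seeing the data, gave neutrophil medians from -0.84 to -0.60. The medians of T cell markers ranged from 0.04 to 0.14, of cDC1 markers from -0.20 to -0.07, of other genes shared by cDCs from -0.03 to 0.03, of the partner genes from 0.03 to 0.09, of NK cell markers from -0.11 to 0.05, of B cell markers from -0.05 to 0.06, and of the retinoid list from -0.05 to 0.06. The counts were lowest for Clec4a4 and Esam, and how far depth limits their values was not tested.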
